A study of Mus musculus with 6 samples.

Results

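Urokinase, its receptor and a serpin inhibitor, 3 matrix metalloproteinases and 1 of their tissue inhibitors, and 2 coagulation proteins were followed in RAW 264.7 cells, a mouse macrophage-like line. These 9 genes (Plau, Plaur, Serpinb2, Mmp12, Mmp13, Mmp14, Timp2, F3 and F10) were taken by symbol from a table of 22192 genes, and all 9 were listed in it. Polyadenylated RNA was sequenced from 3 libraries of cells that received 200 µg/mL of ASPS-A1 for 24 h, a purified fraction of the acidic polysaccharides in leaves of Acanthopanax senticosus. The other 3 libraries were labelled control, and what these cells received is not given in the sources used here. The labels give the strain of the line as BALB/c, and nothing says whether libraries of a group came from separate cultures, so p-values measure only the spread between these libraries.

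Urokinase is a secreted serine protease that binds its receptor, encoded by Plaur, on the cell surface and cleaves plasminogen to plasmin, which degrades fibrin and can activate metalloproteinase precursors. Serpins trap such proteases by a suicide-substrate mechanism, and tissue inhibitors of metalloproteinases (TIMPs) block the zinc site of the metalloproteinases that cleave elastin, collagen and other matrix proteins. Macrophages use these enzymes when they move through tissue and remodel matrix, and they can start clotting through tissue factor, encoded by F3, which leads to activation of factor X, encoded by F10.

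Totals ran from 19989318 to 26137127 counts per library, and 11686 genes were abundant enough to test. Of these, 65.3% passed an adjusted p of 0.05 (edgeR quasi-likelihood test, Benjamini-Hochberg), 32.4% higher and 33.0% lower with ASPS-A1, and the libraries of both groups did not overlap for 68.5%. With scaling by library totals alone the log2 fold change of all genes shifted by −0.20 (median), and 2529 genes were then higher and 5453 lower. All 8 macrophage markers examined were abundant enough to test, with summed levels of 1954 to 1978 CPM (normalised read counts per unit of scaled library size) in control and 2866 to 3017 CPM with ASPS-A1, and the part of this difference in the results was not tested. Markers of fibroblasts summed to at most 1.03 CPM, of epithelium to 0.26, of neutrophils to 0.16 and of hepatocytes to 0.81 in any library. Epcam, Krt8, Ly6g, S100a9, Mpo, Elane and Alb had no count. Of the 6 endothelial markers only Pecam1, which macrophages also express, was abundant enough to test.

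Of the 9 genes, 6 passed the filter on low counts. Among these 6, Mmp12, Mmp13 and Plaur were higher with ASPS-A1, Plau and F10 were lower, and F3 was not past the threshold. That is 5 of 6 called, and the libraries of both groups did not overlap for those same 5. Mmp13 passed the filter only through the treated libraries and so had to differ. Without it 4 of 5 were called and the same 4 did not overlap. Of all genes tested, 65.3% were called and 68.5% did not overlap, and nothing is read from these counts. Both inhibitors among the 9 genes, Serpinb2 and Timp2, were at or near 0 in every library, as was the membrane-bound metalloproteinase Mmp14, and none of these 3 was tested. A difference between proteases and inhibitors therefore could not be measured on these genes, and other inhibitors from wider lists are given further on.

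**Figure D1:**
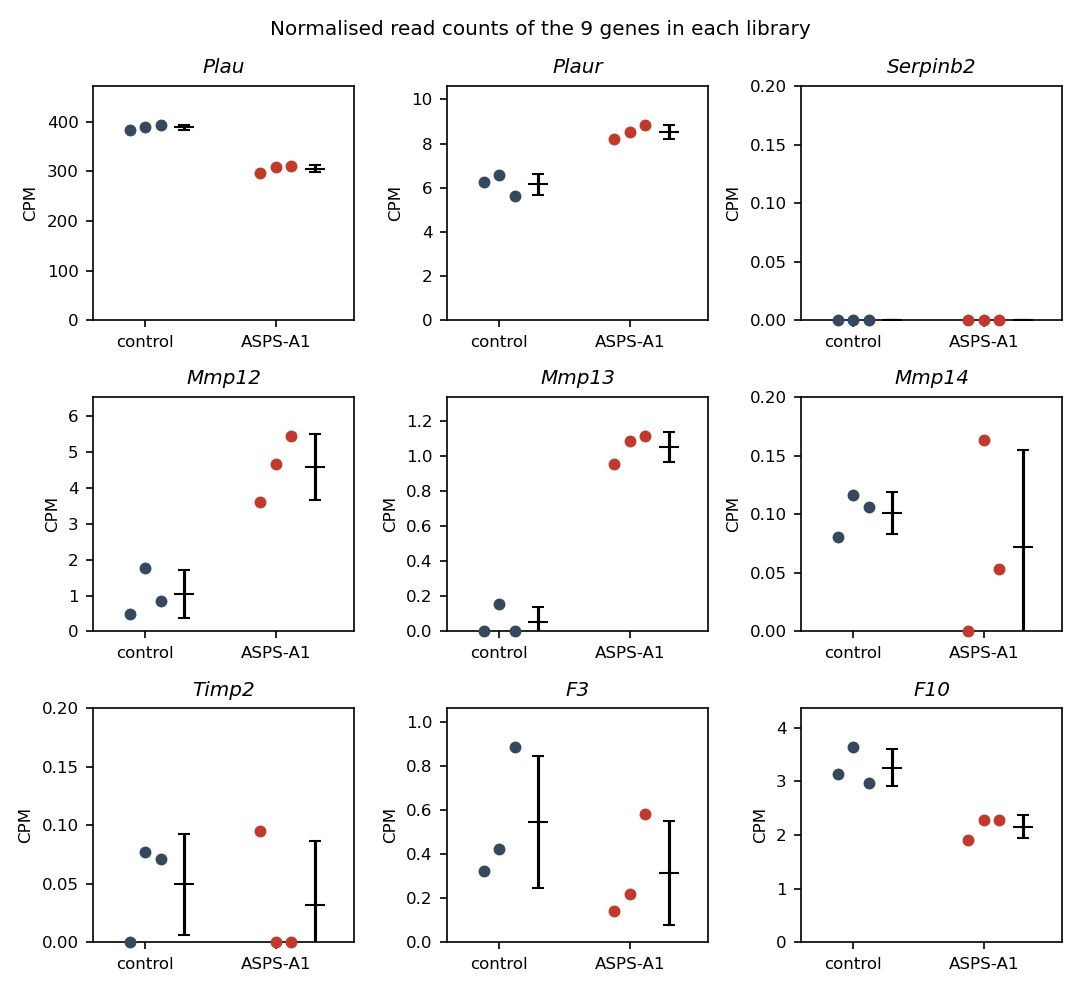
Normalised read counts in CPM (vertical axes, linear from 0, a different scale in each panel) of the 9 genes in the 3 control (dark) and 3 ASPS-A1 (red) libraries, with mean and SD beside the points and bars cut at 0. Plau and F10 sit lower and Plaur, Mmp12 and Mmp13 higher in every ASPS-A1 library, while the Serpinb2 panel holds only zeros.

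Sequence upstream of the start sites is shown for Mmp13 and Mmp12, the 2 members with the largest changes, which lie near each other on chromosome 9. Of the 9 genes, 8 matched by symbol an entry in RefSeq's table for GRCm38.p6, with 10 start sites in all. The build of the deposited counts is not given in the sources used here. Each run holds the 250 bases before an annotated start on the + strand, 5′ to 3′. Capitals mark the letters TGANTCA, with any base at N. This is a looser form of the sequence that AP-1 (Fos and Jun dimers) is known to bind. For Mmp13 the window is chr9:7272264-7272513, and for Mmp12 it is chr9:7347124-7347373, before the second of 2 annotated starts.
Mmp13: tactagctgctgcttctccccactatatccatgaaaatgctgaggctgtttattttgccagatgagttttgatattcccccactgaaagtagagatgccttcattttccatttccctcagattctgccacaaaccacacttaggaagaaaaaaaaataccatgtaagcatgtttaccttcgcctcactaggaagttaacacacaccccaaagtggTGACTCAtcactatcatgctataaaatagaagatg
Mmp12: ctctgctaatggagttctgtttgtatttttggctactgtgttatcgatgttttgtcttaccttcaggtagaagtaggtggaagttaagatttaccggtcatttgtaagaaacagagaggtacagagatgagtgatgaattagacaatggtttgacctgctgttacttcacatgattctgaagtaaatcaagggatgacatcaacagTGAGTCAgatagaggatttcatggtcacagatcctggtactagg
The match lay 35 to 29 bases before the Mmp13 start and 44 to 38 bases before this Mmp12 start, while the window of the other Mmp12 start had none. Windows of 30 bases are shown for Plaur (chr7:24462403-24462432) and F3 (chr3:121723391-121723420), both on the + strand, because they carry the same letters.
Plaur: acccctggagcTGACTCActctttagcaaa
F3: tgaatcacggtTGAGTCAcccctttcgggg
These matches lay 69 to 63 and 135 to 129 bases before the start, and F3 had another 146 to 140 bases before it. That other match opens the F3 window shown and is left in lower case there. Searched on both strands, TGANTCA occurred in 6 of the 10 windows, those of Plaur, Serpinb2, Mmp12, Mmp13 and F3 (5 of 8 genes), and in 6.75% of the 32851 windows of this length in the table. The 2 windows of Serpinb2 overlap and hold the same matches, which are counted for both. The letters TATAAA occurred in 3 of the 10 (Serpinb2 and Mmp13, 12.4% of all windows) and the ETS-type letters AGGAAG in 4 (Plaur, Mmp12, Mmp13 and Mmp14, 29.5% of all). The 5 genes with an AP-1-type match include genes that rose, a gene with no count and a gene past no threshold.

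Urokinase was by far the most abundant of the 9 genes, and it was modestly lower with ASPS-A1. Plau stood at 384, 390 and 394 CPM in the control libraries and at 297, 308 and 311 CPM with ASPS-A1. All control libraries were above all treated ones, and the gap was several times the spread within a group. The means were 389 ± 4.68 and 306 ± 7.44 CPM (SD, n = 3), a 1.27-fold fall (log2 fold change −0.35 ± 0.05 SE, edgeR adjusted p = 6.15e-09). In bulk RNA, fewer cells that express a gene and less transcript per cell cannot be told apart. The Plau call held in every alternative run, with log2 fold changes from −0.33 to −0.54.

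The receptor that holds urokinase at the cell surface went the other way, at a far lower level. Plaur stood at 6.25, 6.58 and 5.63 CPM in control and at 8.21, 8.53 and 8.84 CPM with ASPS-A1, with no overlap. It rose 1.39-fold (log2 fold change 0.47 ± 0.15 SE, edgeR adjusted p = 0.00452). Scaling by library totals ended the call (0.28, adjusted p = 0.0908), as did offsets for length and GC content of the transcripts (0.30, adjusted p = 0.0649). The ratio of Plau to Plaur counts within a library, which no scaling touches, was 61.5, 59.3 and 69.8 in control and 36.2, 36.2 and 35.2 with ASPS-A1. It was lower in each treated library, by 0.82 on the log2 scale (exact permutation test, two-sided, p = 0.1, the smallest that 3 libraries against 3 can give, and adjusted p = 0.15 over 3 ratios).

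Serpinb2, which encodes plasminogen activator inhibitor type 2, had no count in any library. With 62308495 counts over the ASPS-A1 libraries and 73689814 over control, 0 counts allow a level of up to 0.048 and 0.041 CPM (3 counts over the group, counting error only). In the reference annotation 12.4% of its exon length is shared with Serpinb10, which also had no count. The planned ratio of Plau to Serpinb2 could not be formed.

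Of 14 genes of plasminogen activation, 8 were tested, 2 were higher (Plaur and, named after its value was seen, the plasminogen receptor Plgrkt at 0.82 on the log2 scale), 2 were lower (Plau and Lrp1) and 4 were not past the threshold. Of all genes tested, 32.4% were higher and 33.0% lower. The median log2 fold change of these 8 genes was −0.02, as was the median over all genes tested. Lrp1, the endocytic receptor that clears many proteases and their complexes, was 2.35-fold lower, at 112 ± 2.53 against 263 ± 2.86 CPM (SD, n = 3, edgeR adjusted p = 2.27e-26). Its log2 fold change was −1.235, and it was smaller, −0.88, with length and GC offsets (edgeR adjusted p = 1.36e-24). Anxa2 and S100a10, which together bind plasminogen at the cell surface, had log2 fold changes of −0.02 each (adjusted p = 0.739 and 0.815). Both were called lower when library totals set the scale or with length and GC offsets, as was Eno1, a surface plasminogen receptor named after its value was seen, which makes 5 lower genes of this list. With the offsets the log2 fold change was −0.15 for Anxa2 and −0.55 for S100a10 (edgeR adjusted p = 0.000882 and 2.18e-13). With library totals it was −0.215 and −0.212. Tissue plasminogen activator was barely present, with 18 Plat counts over the treated libraries and 15 over control, and Serpine2 had 1 count in all.

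**Figure D2:**
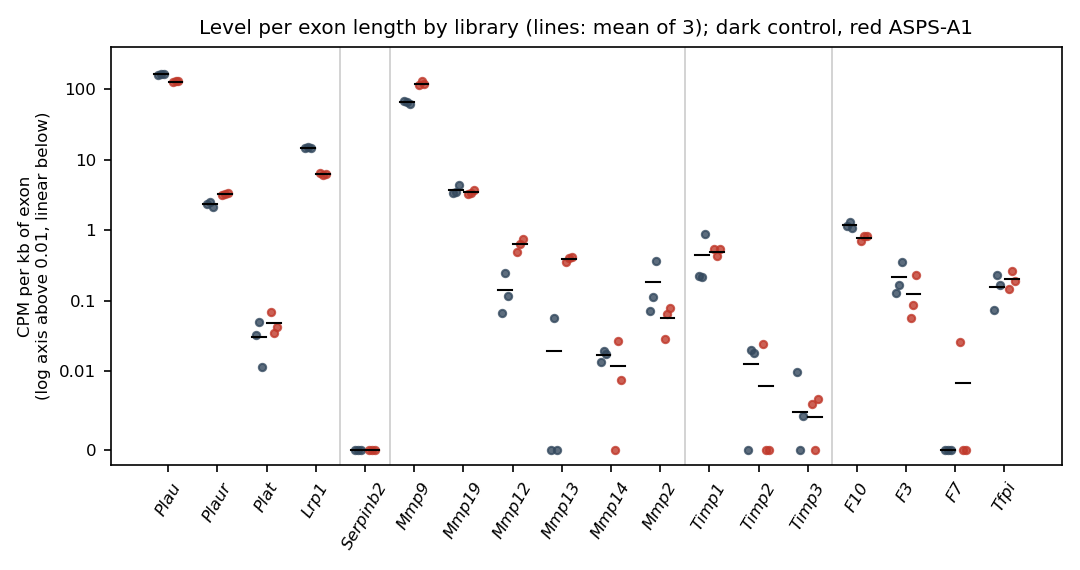
Level in CPM per kilobase of exon (vertical axis, log scale above 0.01 and linear below) of each control (dark) and ASPS-A1 (red) library, with a line at each group mean, for urokinase pathway genes, Serpinb2, metalloproteinases, TIMPs and coagulation genes from left to right. Of the genes plotted, Plau and Mmp9 stand highest in both groups, while Timp2, Timp3 and Serpinb2 lie near or at 0.

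Both secreted metalloproteinases among the 9 genes rose, from low levels. Mmp12, the macrophage elastase, stood at 0.48, 1.78 and 0.85 CPM in the control libraries and at 3.63, 4.67 and 5.45 CPM with ASPS-A1, from 12 to 46 and from 76 to 103 counts per library. The groups did not overlap, although each varied more, relative to its mean, than for Plau. Mmp12 rose 4.38-fold (log2 fold change 2.13 ± 0.31 SE, edgeR adjusted p = 1.92e-07). Control replicate 2 held the highest control level, and without it the log2 fold change was 2.75. In the reference annotation 2.17% of its exon length is shared with Mmp1b, which had no count in any library.

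Mmp13, an interstitial collagenase, had 0, 4 and 0 counts in the control libraries and 20, 20 and 21 counts with ASPS-A1. The treated level was 1.05 ± 0.0846 CPM (SD, n = 3), and the pooled rate was 20.7 times that of control (95% exact interval 7.66 to 78.2, counting error only). The fitted log2 fold change was 4.23 ± 0.70 SE (edgeR adjusted p = 9.03e-07), and 3.64 without control replicate 3. Because Mmp13 passed the filter only through the treated libraries, it had to differ, and this p-value is not read as support. All of its control counts came from control replicate 2, and without that library both remaining controls were at 0 and the fitted value was 7.55, which depends on the prior count and is no bound.

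Mmp14, the membrane-type metalloproteinase that activates the precursor of Mmp2, had 0, 3 and 1 counts with ASPS-A1 and 2, 3 and 3 in control. Timp2, which binds Mmp14 in that activation and inhibits several family members, had 2, 0 and 0 counts with ASPS-A1 and 0, 2 and 2 in control. Every one of these counts lies at or under the 3 counts that a 0 allows, so no fold is given for either gene, and the planned ratios of Mmp12, Mmp13 and Mmp14 to Timp2 were not formed.

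Most of the wider family was at or near 0. Of 23 matrix metalloproteinase genes, 6 were at 0 throughout and 4 were tested. Of these 4, Mmp9, Mmp12 and Mmp13 were higher, 0 were lower and Mmp19 was not past the threshold. The count of lower genes by edgeR was also 0 at an unadjusted p under 0.05, and 0 by DESeq2 and by limma-voom. Among all genes tested 32.4% were higher and 33.0% lower. Without Mmp13, which passed the filter only through the treated libraries, 2 of 3 were called, beside 65.3% of all genes tested. The median log2 fold change of this list was 1.501 with Mmp13 and 0.87 over the 3 others, beside −0.02 over all genes tested. Mmp9, the gelatinase that macrophages secrete, was the most abundant, at 243, 238 and 223 CPM in control and 407, 462 and 418 CPM with ASPS-A1. It rose 1.83-fold (log2 fold change 0.87 ± 0.05 SE, edgeR adjusted p = 9.02e-20), and per kilobase of exon it stood at 121 CPM with ASPS-A1, where Mmp12 stood at 0.633 and Mmp13 at 0.393. Exon length here merges all annotated exons of a gene, 7237 bases for Mmp12, 3539 for Mmp9 and 2673 for Mmp13. For Mmp19 the log2 fold change was −0.12 (adjusted p = 0.400). It was −0.31 (adjusted p = 0.0217) when library totals set the scale and 0.01 without control replicate 3, and 28.3% of its exon length is shared with other genes.

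Of the 5 metalloproteinase inhibitors, Timp1 alone passed the filter, at 0.445 ± 0.0558 CPM with ASPS-A1 against 0.392 ± 0.336 CPM in control (SD, n = 3). Its log2 fold change was 0.15 ± 0.57 SE (edgeR adjusted p = 0.827), and the sign turned under several alternatives. Timp3 had 2 counts over the treated libraries and 3 over control, and Reck, a membrane-anchored inhibitor, had 4 and 0. Per kilobase of exon, Timp1 stood at 0.501 CPM beside 121 CPM for Mmp9 in the treated cells.

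F10, which encodes coagulation factor X, was lower with ASPS-A1. It stood at 3.15, 3.64 and 2.98 CPM in control and at 1.91, 2.28 and 2.28 CPM with ASPS-A1, with no overlap. It fell 1.51-fold (log2 fold change −0.59 ± 0.24 SE, edgeR adjusted p = 0.0292). The call rested on single libraries, with −0.51 (adjusted p = 0.0984) without ASPS-A1 replicate 1 and −0.51 (adjusted p = 0.113) without control replicate 2. Its ratio to Tfpi, the tissue factor pathway inhibitor that blocks factor Xa, was 7.80, 2.85 and 3.23 in control and 2.35, 1.56 and 2.15 with ASPS-A1. The ratio was lower in each treated library, by 1.05 on the log2 scale (exact permutation test, two-sided, p = 0.1, adjusted p = 0.15 over 3 ratios), and by 0.61 without control replicate 1. Tfpi had 64 counts over the treated libraries and 69 over control, with a log2 fold change of 0.34 (edgeR adjusted p = 0.475).

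F3, which encodes the receptor that starts the extrinsic pathway, was scarce in both groups. It had 8, 11 and 25 counts in the control libraries and 3, 4 and 11 with ASPS-A1, and the groups overlapped. The log2 fold change was −0.82 ± 0.58 SE (edgeR adjusted p = 0.213), which leaves a range from −1.96 to 0.31 (95% interval). Control replicate 3 held 25 of the 44 control counts, and without that library F3 fell below the filter. ASPS-A1 replicate 3 held 11 of the 18 treated counts, and without it the log2 fold change was −1.60 (edgeR adjusted p = 0.0567). Control replicate 3 held 35 Mmp2 and 22 Timp1 counts, against at most 10 of either in any other library. It also held 21 counts of F2 and 19 of Fgb, against at most 6, genes named after their values were seen. The part of control replicate 3 in the F3 difference was not tested. The ratio of F3 to Tfpi differed by −1.29 on the log2 scale, and its groups overlapped (exact permutation test, two-sided, p = 0.2, adjusted p = 0.2 over 3 ratios).

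Of 24 coagulation factors, cofactors, receptors and anticoagulants, 6 were at 0 throughout and 10 were tested. In this list 3 genes were higher, 1 (F10) was lower and 6 were not past the threshold, beside 32.4% higher and 33.0% lower among all genes tested, with a median log2 fold change of 0.20. The 3 that rose, named after their values were seen, were Procr, the endothelial protein C receptor (1.72), the coagulation factor F9 (1.06) and Pros1, the protein S cofactor of activated protein C (0.42). F7, the enzyme that tissue factor binds, had 1 count in all libraries together, thrombomodulin (Thbd) had 0, the transglutaminase subunit F13a1 had 3 and the thrombin receptor F2r had 10 over the treated libraries and 2 over control.

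**Figure D3:**
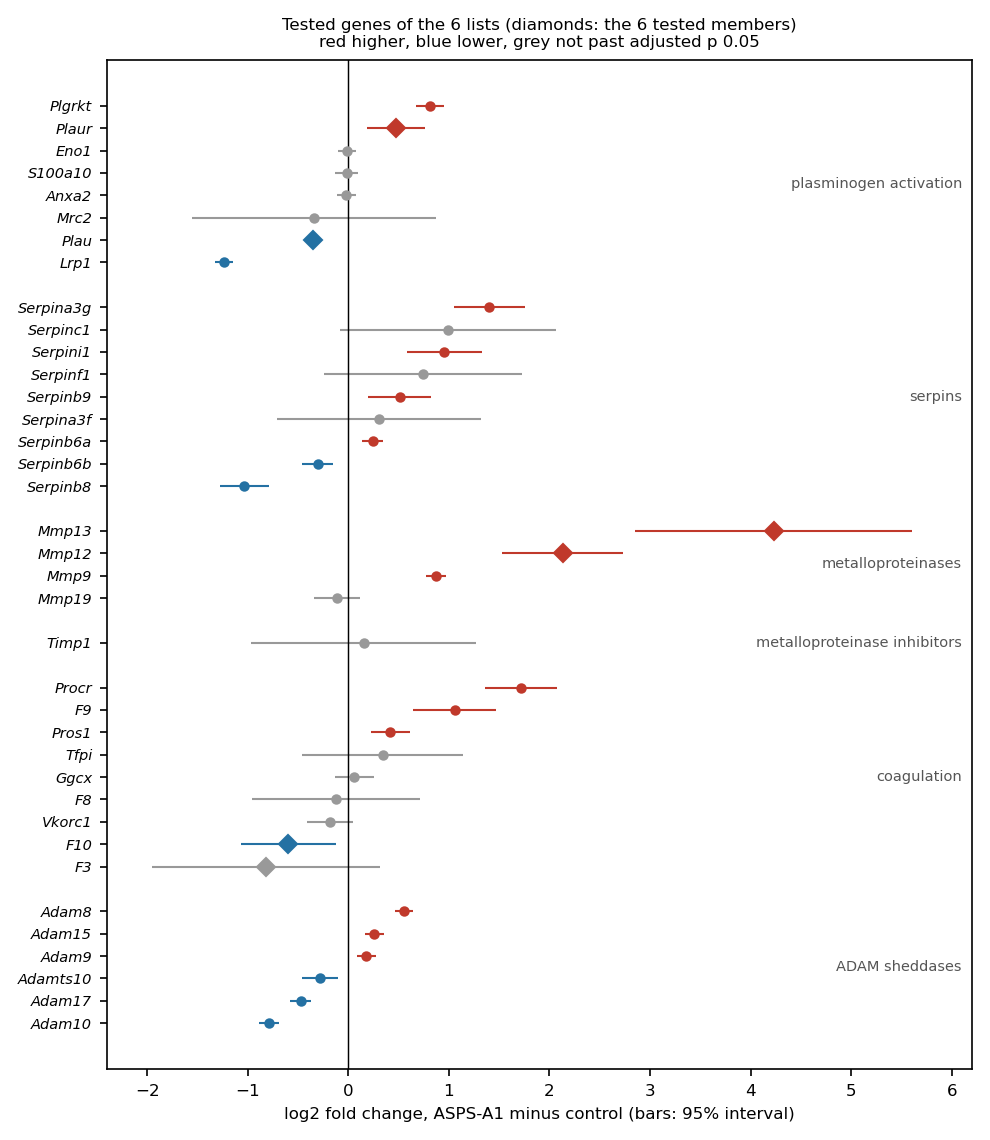
Log2 fold change of ASPS-A1 minus control (horizontal axis) with its 95% interval, for each tested gene of the 6 lists, grouped by the first list that holds it; diamonds are members, red is higher, blue lower and grey not past an adjusted p of 0.05. Mmp13 and Mmp12 lie farthest to the right, at 4.23 and 2.13, while Lrp1 lies farthest to the left, at −1.23.

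Among 22 serpins, 9 were tested, of which 4 were higher, 2 lower and 3 not past the threshold (median log2 fold change 0.51), beside 32.4% higher and 33.0% lower among all genes tested. Those higher included Serpinb6a, an intracellular serpin (0.24, edgeR adjusted p = 0.000102), and Serpinb9, the granzyme B inhibitor (0.51, adjusted p = 0.00507). The call for Serpinb6a was lost with scaling by library totals (0.05) and with length and GC offsets (0.01), and it shares 29.3% of its exon length with neighbours. Serpinb9 was also not past the threshold with library totals (0.31) or without ASPS-A1 replicate 3 (0.33) or control replicate 3 (0.39). Named after their values were seen, Serpina3g (1.40) and Serpini1 (0.96) were the other 2 that rose, and Serpinb6b (−0.30) and Serpinb8 (−1.03) the 2 that fell. Several of these serpins have close paralogs, and how reads that fit more than 1 gene were counted is unknown here, so their values are less certain. The C1 inhibitor gene Serping1 had 1 count over the treated libraries and 3 over control.

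Of 12 ADAM and ADAMTS proteases, which shed membrane proteins or cleave proteoglycans, 6 were tested, 3 were higher and 3 lower, beside 32.4% and 33.0% of all genes tested. Adam8, a myeloid sheddase, rose 1.47-fold (301 ± 4.78 against 205 ± 6.24 CPM, SD, n = 3, edgeR adjusted p = 1.55e-14). Adam17, the enzyme that releases TNF from the cell surface, fell 1.39-fold (95.03 ± 4.11 against 132 ± 3.69 CPM, edgeR adjusted p = 8.17e-11). The other members called, named after their values were seen, were Adam9 (0.18) and Adam15 (0.26, with 20.6% of its exon length shared), which were higher, and Adam10 (−0.79) and Adamts10 (−0.28), which were lower. With library totals alone 1 gene of this list was higher, and 2 were lower with length and GC offsets or without ASPS-A1 replicate 3.

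**Figure D4:**
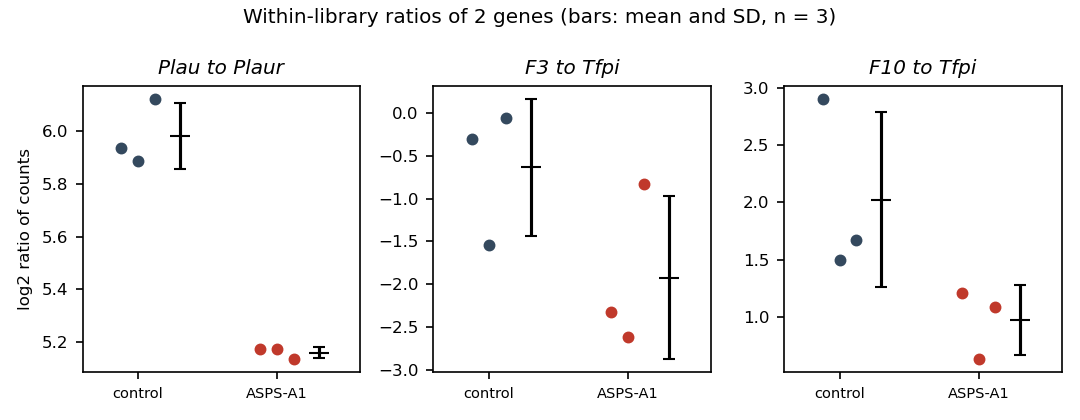
Log2 ratio of the counts of 2 genes within each library (vertical axes, with 0.5 added to each count, not starting at 0), for control (dark) and ASPS-A1 (red), with mean and SD beside the points. The groups are apart for Plau to Plaur and F10 to Tfpi and overlap for F3 to Tfpi.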

How the data were processed

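The authors deposited 1 table of whole-number counts per gene symbol, not normalized, with a column for each library, per the file headers. The submitters' processing notes name HISAT2 2.1.0 and HTSeq 0.9.1, beside fastp 0.22.0 and DESeq 1.38.3. Build, annotation, strand setting and the handling of ambiguous reads: not given in the sources used here. Libraries were grouped by the treatment label.

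Genes were filtered with filterByExpr of edgeR 4.0.16 (minimum count 10, minimum total 15), scaled with TMM factors and fitted with glmQLFit and glmQLFTest (robust, two-sided) in R 4.3.3, and p-values were adjusted over all 11686 genes (Benjamini-Hochberg). Standard errors were taken as |log2 fold change|/√F. Ratios of 2 genes were compared with exact permutation tests over libraries. The fit was tested on simulated data. No library was a copy of another of its group (chi-square over degrees of freedom, 4.21 to 6.80).

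The 9 genes, the 6 wider lists and the genes named for their role (the 9, and 21 partners, inhibitors and relatives chosen for role and not for change) were chosen with earlier results of these data known. Genes outside that rule are said to be so in the text, and 1 gene of the wider lists is not reported here and not counted in them. Exon lengths (all annotated exons of a gene merged) and overlaps came from GENCODE M21. The length and GC offsets (lowess, span 0.3) reached 96.1% of the tested genes. Alternatives were other scalings, DESeq2 1.42.0, limma-voom (limma 3.58.1), other filters, a block for library number, those offsets and leaving out each library.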

Additional observations from a re-analysis of the deposited data

How the results depend on the processing

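Plau and Mmp12 kept their direction and call in each alternative. Mmp13 did so where it could be tested, but it was below a filter of 1 CPM in 3 libraries. It passed the main filter only through the treated libraries, so nothing is read from its calls. Plaur lost its call with library totals (0.28) and with length and GC offsets (0.30), and F10 without ASPS-A1 replicate 1 or control replicate 2 (log2 fold changes from −0.66 to −0.51 over the 6 left-out libraries), so the members called lower were 1 to 2. With library totals, 5 plasminogen activation genes, 1 metalloproteinase and 2 coagulation genes were lower, and 1 plasminogen activation gene, 2 serpins and 1 ADAM gene higher. Their medians were then −0.21 (plasminogen activation), 0.0067 (coagulation) and −0.25 (ADAM). With the offsets, 5 plasminogen activation and 2 coagulation genes were lower and 1 plasminogen activation gene higher, and the medians were −0.14 (plasminogen activation) and 0.083 (ADAM). The ADAM median was −0.10 with upper-quartile factors, and the metalloproteinase median 0.87 with the filter of 1 CPM. With no filter on low counts 1 metalloproteinase was lower, Mmp2, with 35 of its control counts in control replicate 3, and 3 more genes were higher: Mmp10 (8 counts, all in ASPS-A1 replicate 2), Serpind1 (30 counts with ASPS-A1, 2 in control) and F2rl2 (32 and 2). Leaving out single libraries gave 0 to 1 lower coagulation genes and a coagulation median of −0.015 to 0.38.

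Timp1 turned to −0.042 with library totals and −0.30 with the offsets. Without control replicate 3, which held 22 of its 32 control counts, Timp1 fell below the filter, so its range below lacks that run. Leaving out single libraries, log2 fold changes ran from −0.17 to 0.24 for Timp1 (below 0 without control replicate 1 or 2), from −0.19 to 0.011 for Mmp19 (above 0 without control replicate 3), from −0.044 to 0.017 for Anxa2 (above 0 without replicate 1 of either group) and from −0.071 to 0.038 for S100a10 (above 0 without ASPS-A1 replicate 1 or control replicate 2). None of these reversed values passed the threshold, and the cause of these shifts was not tested.

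The library numbers do not pair the samples by any label. With a replicate block 3746 genes were higher and 3807 lower, no call of the 9 genes changed, and same-numbered libraries had correlations of deviations of −0.0138, 0.00709 and 0.00398, none best with its own number. Ratios kept their sign in each alternative, in a design that cannot give a p under 0.1. Counts under about 3 per library limit Mmp14, Timp2 and Serpinb2.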
